A study of Mus musculus and Homo sapiens with 12 samples.

Results

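The nuclear genes for subunits of 4 mitochondrial complexes were followed in EMT6, a mouse mammary carcinoma cell line: complex I, complex III, complex IV and the ATP synthase. Members were the protein-coding genes whose symbols begin with Ndufa, Ndufb, Ndufc, Ndufs or Ndufv and a digit (complex I), with Uqcr or equal to Cyc1 (complex III), with Cox4 to Cox8 (complex IV), or with Atp5 (ATP synthase). The rule gave 82 of the 54331 gene identifiers in the mouse table: 37 for complex I, 9 for complex III, 18 for complex IV and 18 for the ATP synthase. Of 94 symbols that fit the names, 8 ending in -ps and 4 annotated as processed pseudogenes were left out. Ndufab1 and Usmg5, whose products belong to complex I and the ATP synthase, fall outside the name rule.

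The series measured polyadenylated RNA by single-end sequencing in EMT6 and in a human line, which was not analysed here. EMT6 was profiled as wild type (WT) and with the genotype PFKFB4-Knock-out, with 3 libraries in each group. All 6 came from cells kept in high-glucose medium with serum, and no other allele or agent is named. The labels call the libraries biological replicates without naming separate cultures, and the p-values therefore reflect only the variation among these 6 libraries, which may be technical. The knockout columns carry the code A7, which no label explains, and were assigned by elimination, since the other columns of the table are named as wild type. How the gene was deleted, and whether the knockout is 1 clone or a pool, is not given in the sources used here.

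Complex I takes electrons from NADH, complex III passes them from ubiquinol to cytochrome c, complex IV hands them to oxygen, and the ATP synthase uses the proton gradient that the first of these build. Each is a mosaic of subunits encoded in the nucleus, imported into the mitochondrion, and a few encoded in mitochondrial DNA. Many of the nuclear genes have promoters bound by the transcription factors NRF1 and GABP, the latter an ETS-family factor. PFKFB4 is a bifunctional enzyme that sets the level of a regulator of glycolysis.

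The targeted transcript was still present in the libraries labelled as knockout. In replicates 1, 2 and 3, the order used for all genes, Pfkfb4 was at 10.2, 10.5 and 10.4 TPM in wild type and at 6.96, 6.87 and 8.23 TPM in the knockout. It lies on chromosome 9 (ENSMUSG00000025648, from 108991778 to 109032228), and all coordinates of genes are on GRCm38. TPM is an abundance corrected for transcript length that sums to 1000000 in each library. The groups did not overlap, and the difference on the log2(TPM + 1) scale was -0.45 ± 0.08 (SE), adjusted p = 0.00487. It was -0.23 with an adjusted p of 0.0632 when libraries were scaled by their median ratio and -0.18 with an adjusted p of 0.134 when a trend of the values with exon length was subtracted, called length correction from here on. Uqcrc1, a complex III subunit gene, ends 42155 nt before Pfkfb4 on chromosome 9, and was not called (0.01 ± 0.04 (SE), adjusted p = 0.836). Between 12350 and 12426 genes reached 1 TPM in wild type and between 11871 and 12015 in the knockout. Markers of leukocytes moved with the groups, in both directions. Of 8 in that list, 3 could be tested and 2 were higher, with a summed level of 50.3 to 54.8 TPM in wild type and 83.0 to 87.9 TPM in the knockout. Cd68, called higher, and Cd14, not called, made up most of that sum. Mean levels went from 23.9 to 56.1 TPM for Cd68 and from 25.3 to 23.7 TPM for Cd14. Coro1a, also called higher, went from 2.17 to 5.14 TPM. Under the minimum, Cd79a (0.417 to 0.075 TPM) and Csf1r (0.064 to 0.017 TPM) were lower in the knockout, and Lyz2 (0.016 to 0.413 TPM) was higher. Ptprc, which defines leukocytes, was listed at 0 in all wild-type libraries and did not pass 0.0041 TPM in any knockout library. Markers of epithelium, keratins and adhesion proteins, moved with the groups too. Of 6 in that list 4 could be tested, of which Krt8 was higher (0.15 ± 0.04 (SE), adjusted p = 0.0302) and Krt18 (-1.17), Krt19 (-1.53) and Krt14 (-2.92) were lower, calls that held under median-ratio scaling and after length correction. Krt14 went from 36.5 ± 1.25 to 3.94 ± 0.275 TPM (SD, n = 3). The summed level of the list was 530.2 to 583.9 TPM in wild type and 541.9 to 567.9 TPM in the knockout, of which Krt8 made up most, and Epcam and Cdh1 stayed under 0.289 TPM in every library. Of 4 mesenchymal markers 1 was higher and 2 lower, with sums of 3244 to 3485 TPM in wild type and 3662 to 3812 TPM in the knockout. Vim, called higher, made up most of both sums, with means of 2711 and 3292 TPM. Fn1 (616 to 451 TPM) and Zeb1 (4.74 to 1.69 TPM) were lower, and Twist1 was not called. After length correction Fn1 had no call (-0.01 with an adjusted p of 0.949). The part of cell composition in the results below was not tested, and in bulk RNA fewer cells of a type cannot be told apart from less RNA per cell.

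Promoter sequences of members that rose and of members that fell are shown for 2 motifs that were searched on both strands: the NRF1 core GCATGCGC, whose other strand reads GCGCATGC, and the ETS motif CCGGAAG, read CTTCCGG on the other strand. RefSeq promoters on GRCm38.p6, which run from 250 bases before to 50 after a gene's start, matched 65 members, and 17 had none. The 3 sequences printed first belong to members of complex I, complex III and the ATP synthase that rose and whose window holds a motif. The last 2 belong to the complex I members that fell. Each runs 5′ to 3′ from 180 bases before the start to 20 after it, with the motifs in capitals. They lie at chr17:56717582-56717781 on the plus strand for Ndufa11, chr4:116075051-116075250 on the minus strand for Uqcrh, chr5:108434380-108434579 on the minus strand for Atp5k, chr17:31519935-31520134 on the plus strand for Ndufv3 and chr17:24724404-24724603 on the minus strand for Ndufb10.
Ndufa11: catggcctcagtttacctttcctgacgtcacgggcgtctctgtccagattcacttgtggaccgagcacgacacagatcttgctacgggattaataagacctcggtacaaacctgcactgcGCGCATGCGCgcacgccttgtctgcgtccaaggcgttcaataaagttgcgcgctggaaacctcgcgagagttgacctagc
Uqcrh: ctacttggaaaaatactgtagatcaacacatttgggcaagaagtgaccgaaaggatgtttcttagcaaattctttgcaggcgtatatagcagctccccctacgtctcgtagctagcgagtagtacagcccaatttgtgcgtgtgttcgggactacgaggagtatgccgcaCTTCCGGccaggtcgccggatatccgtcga
Atp5k: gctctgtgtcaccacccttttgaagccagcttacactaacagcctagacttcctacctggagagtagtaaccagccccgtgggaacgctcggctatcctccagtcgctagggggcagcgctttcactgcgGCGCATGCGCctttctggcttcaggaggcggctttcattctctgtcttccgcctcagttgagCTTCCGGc
Ndufv3: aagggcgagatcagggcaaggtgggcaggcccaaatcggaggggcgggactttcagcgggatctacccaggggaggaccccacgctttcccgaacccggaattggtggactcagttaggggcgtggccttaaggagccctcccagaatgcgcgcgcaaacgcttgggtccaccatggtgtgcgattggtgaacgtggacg
Ndufb10: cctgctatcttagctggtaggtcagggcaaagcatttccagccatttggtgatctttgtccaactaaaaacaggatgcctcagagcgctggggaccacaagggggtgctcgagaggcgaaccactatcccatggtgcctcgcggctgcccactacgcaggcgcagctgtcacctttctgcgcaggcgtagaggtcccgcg

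In Atp5k the NRF1 core occurs on both strands in overlap, and its ETS motif lies just after the start. Ndufa11 holds the same overlapping pair, and Uqcrh holds 1 ETS motif shortly before the start. Counted over windows, the NRF1 core was in 12.9% of 70 member windows and in 2.7% of all 32851 windows. The ETS motif was in 14 of the 70 and in 8.9% of all, and either motif in 27.1% of member windows and 11.0% of all. By complex, either motif was in 7 of 34 windows for complex I, 3 of 5 for complex III, 3 of 13 for complex IV and 6 of 18 for the ATP synthase. Among members called higher in the knockout, 15 of 51 windows held a motif, and among those not called 4 of 12. None of the 4 windows of members called lower held one, but neither did the window of Ndufa1, the member with the largest rise. These are letters in a window and say nothing of binding.

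Transcripts for subunits of all 4 complexes were mostly more abundant in the knockout. Of the 82 members, 75 reached the minimum of 0.5 TPM in at least 3 of the 6 libraries, and 55 of these rose, 5 fell and 15 were not called. A call is an adjusted p under 0.05 in limma over all 13499 tested genes. Over that background 14.5% of genes were called higher and 42.3% lower. The median log2 fold change was 0.35 over the members and -0.21 over all tested genes. The 2 sets differ in level, with a median in wild type of 138.9 TPM for tested members and 10.45 TPM for all tested genes. The part of level in these shares and medians was not tested. The counts of members whose 3 knockout libraries all lay above, or all below, the wild-type libraries were the same as the counts called. They made up 80.0% of the members, against 66.2% of all tested genes and 71% of tested protein-coding genes. Over all tested genes 2416 lay above and 6519 below.

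**Figure D1:**
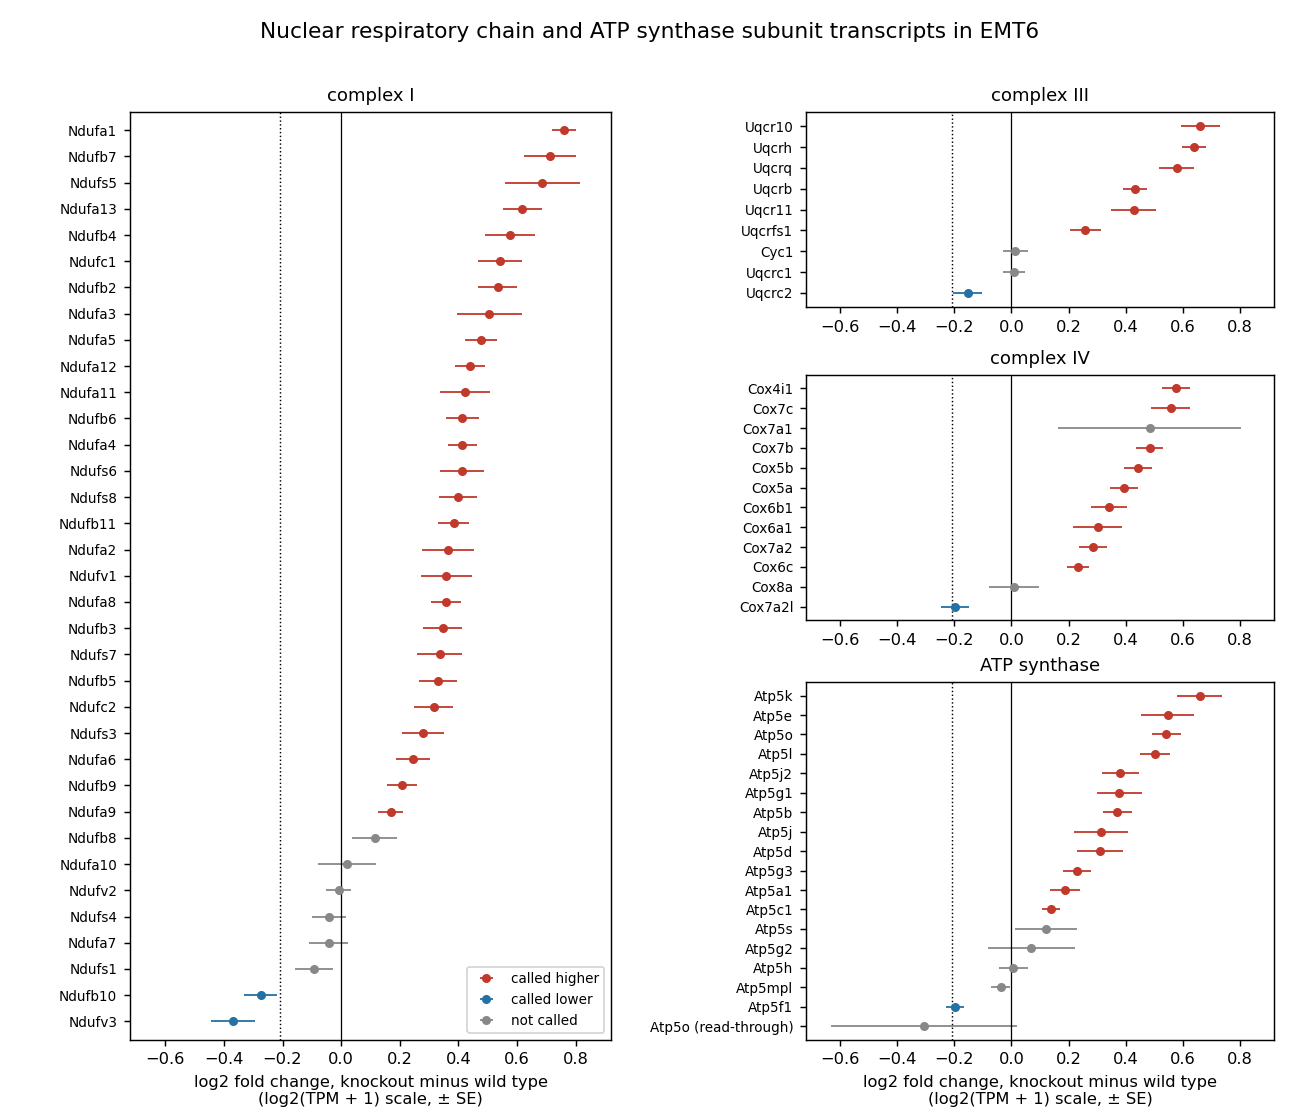
Log2 fold change of tested members on the log2(TPM + 1) scale, knockout minus wild type, with its SE (n = 3 per group), in 4 panels by complex. Red points were called higher, blue lower and grey neither; the dotted line is the median of all tested genes, -0.21. Most points lie to the right of 0 in each panel, and the 5 blue points lose their call under median-ratio scaling, where Uqcrc2, Cox7a2l and Atp5f1 also change sign.

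The medians of the complexes lay between 0.27 and 0.43. In complex I 28 of 36 tested members rose and 2 fell, with a median of 0.36. For complex III the counts were 6 and 1 of 9, with a median of 0.43. Complex IV had 9 and 1 of 12, with a median of 0.37, and the ATP synthase 12 and 1 of 18, with a median of 0.27. No test of one complex against another was made. Summed over its members, complex I stood at 4627, 5129 and 5204 TPM in wild type and at 6410, 5903 and 6319 TPM in the knockout, a ratio of means of 1.25. The ratio was 1.35 for complex III, 1.30 for complex IV and 1.23 for the ATP synthase. In each complex the 3 knockout sums lay above the 3 wild-type sums, wild-type replicate 1 was the lowest library, and knockout replicate 2 was the lowest of its group.

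**Figure D2:**
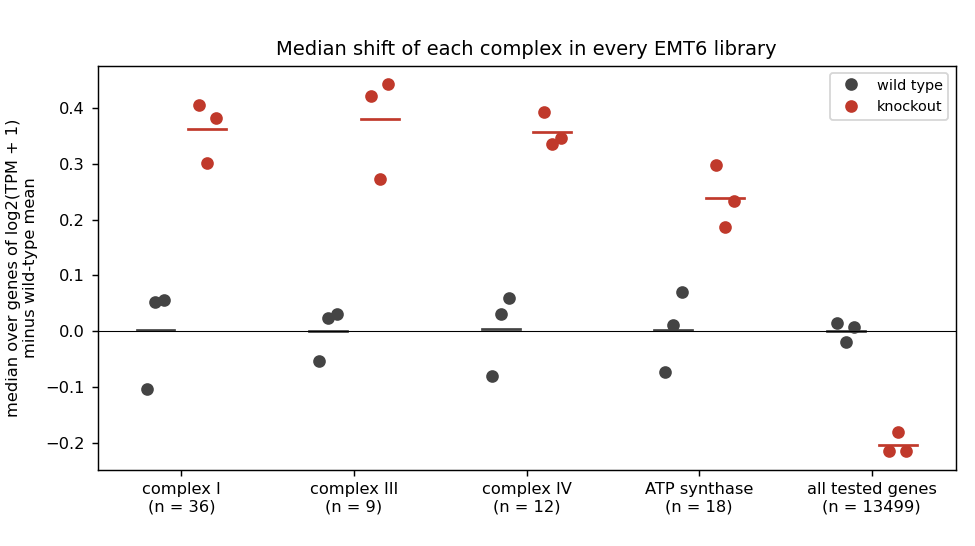
Median over the tested members of each complex, and over all tested genes, of log2(TPM + 1) minus the gene's wild-type mean, with 1 point per library (replicates 1 to 3 from left to right) and a bar at the group mean. The knockout libraries sit between 0.187 and 0.443 for the complexes and between -0.215 and -0.181 for all tested genes.

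In complex I the core subunits, which carry the flavin and the iron-sulfur clusters and form the quinone site, had a smaller median than the accessory subunits. Of 7 core genes 5 rose and 0 fell, with a median of 0.28. Of 29 tested accessory genes 23 rose and 2 fell, with a median of 0.38, but after length correction this order turned, with medians of 0.27 for core and 0.19 for accessory genes. The core genes that rose included Ndufs8 (0.40) and Ndufv1 (0.36). Ndufs1, the largest iron-sulfur protein of the complex, was at -0.09 ± 0.07 (SE), adjusted p = 0.26, and Ndufv2 at -0.01 ± 0.04 (SE), adjusted p = 0.878. Ndufs1 was called higher after length correction (0.28 with an adjusted p of 0.00334).

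Among the accessory genes, Ndufa1 had the largest rise of all members. Ndufa1 (ENSMUSG00000016427, chromosome X, 37187588 to 37191163), a small membrane-arm subunit, stood at 96.9, 93.5 and 97.3 TPM in wild type and at 169.6, 159.6 and 160.1 TPM in the knockout. The groups were far apart, with a difference of 0.76 ± 0.04 (SE), adjusted p = 0.00014, or 1.69-fold. Ndufb7, on the intermembrane side of the membrane arm, stood at 55.2, 63.0 and 62.3 TPM in wild type and at 105, 88.5 and 104 TPM in the knockout, with knockout replicate 2 lowest of its group. Its rise was 0.71 ± 0.09 (SE), adjusted p = 0.00147. Ndufs5, also on that side, stood at 108, 140.1 and 145 TPM in wild type and at 223, 189 and 218 TPM in the knockout, with a wide spread in wild type (0.69 ± 0.13 (SE), adjusted p = 0.00587). Of its 50-base words, 21.7% also occur in transcripts of other genes, so its reads could have been split or lost in the authors' counting.

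The most abundant complex I transcripts in wild type were Ndufb8 and Ndufa4, whose levels overlapped there. Ndufb8, a membrane-arm subunit, stood at 425, 490.2 and 501 TPM in wild type and at 544, 487 and 499 TPM in the knockout and was not called (0.11 ± 0.08 (SE), adjusted p = 0.256), with knockout replicates 2 and 3 within the wild-type range. It was called higher under median-ratio scaling (0.35 with an adjusted p of 0.0201) and after length correction (0.26 with an adjusted p of 0.0383). Ndufa4, first described in complex I and later assigned to complex IV, stood at 451, 486 and 466 TPM in wild type and at 657, 605 and 607 TPM in the knockout, without overlap (0.41 ± 0.05 (SE), adjusted p = 0.00132). Its relative Ndufa4l2 did not reach the minimum, with at most 0.395 TPM in any library. The remaining called rises in complex I ran from 0.17 for Ndufa9 to 0.62 for Ndufa13, which makes part of the membrane arm. Ndufa10, Ndufa7, Ndufs4 and Ndufv2 were within 0.05 of 0 and not called in TPM, and under median-ratio scaling Ndufs4 (0.20 with an adjusted p of 0.0448) and Ndufv2 (0.23 with an adjusted p of 0.0165) were called higher.

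The 2 complex I members that fell were both accessory genes on chromosome 17. Ndufv3 (ENSMUSG00000024038, chromosome 17, 31520115 to 31531331), a small subunit of the NADH-oxidising module, stood at 68.1, 77.2 and 77.8 TPM in wild type and at 60.1, 53.1 and 58.8 TPM in the knockout. Its groups did not overlap (-0.37 ± 0.07 (SE), adjusted p = 0.00781). Ndufb10 (ENSMUSG00000040048, chromosome 17, 24722060 to 24724478), a membrane-arm subunit, stood at 90.1, 93.0 and 97.3 TPM in wild type and at 79.7, 72.1 and 79.5 TPM in the knockout, again without overlap (-0.27 ± 0.06 (SE), adjusted p = 0.00806). Neither was called under median-ratio scaling. There the value was -0.13 with an adjusted p of 0.251 for Ndufv3 and -0.04 with an adjusted p of 0.663 for Ndufb10. After length correction Ndufb10 kept its call, -0.43 with an adjusted p of 0.000679, and Ndufv3 lost it, -0.22 with an adjusted p of 0.0566.

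In complex III the small subunits rose together, and neither core protein gene was called higher in TPM. All 5 small-subunit genes rose, with a median of 0.58. Uqcr10, a small subunit beside cytochrome c1, stood at 126, 141 and 149.5 TPM in wild type and at 218, 216 and 226 TPM in the knockout (0.66 ± 0.07 (SE), adjusted p = 0.000813). Uqcrh, the hinge protein at the cytochrome c side and the most abundant complex III transcript, stood at 277, 299.5 and 285 TPM in wild type and at 449, 436 and 457 TPM in the knockout (0.64 ± 0.04 (SE), adjusted p = 0.000244). Uqcrq, a further small membrane subunit, stood at 216, 228 and 235 TPM in wild type and at 339, 315 and 362 TPM in the knockout (0.58 ± 0.06 (SE), adjusted p = 0.000946). For these 3 genes the lowest knockout library lay well above the highest wild-type library, and wild-type replicate 1 was the lowest of the 6. Uqcrb (0.43) and Uqcr11 (0.43) rose with smaller values, and Uqcr11 lost its call after length correction (0.14 with an adjusted p of 0.0786).

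The catalytic and core subunits of complex III stayed closer to 0 in TPM. After length correction the medians were 0.36 for the small subunits and 0.07 for both the catalytic and the core genes. There Uqcrc1 (0.23) lay above the small-subunit genes Uqcrb (0.21) and Uqcr11 (0.14). Uqcrfs1, the Rieske iron-sulfur protein, rose by 0.26 (adjusted p = 0.0084), and Cyc1, cytochrome c1, was at 0.01 ± 0.04 (SE), adjusted p = 0.801. Cyc1 was called higher under median-ratio scaling (0.25 with an adjusted p of 0.00894) but not after length correction (0.01 with an adjusted p of 0.766). Uqcrc2, 1 of the 2 core proteins that face the matrix, stood at 71.9, 65.0 and 65.6 TPM in wild type and at 60.0, 62.0 and 59.5 TPM in the knockout. The groups did not overlap and the call was marginal (-0.15 ± 0.05 (SE), adjusted p = 0.0452). It was lost when any 1 library was left out (adjusted p 0.0573 to 0.122), and median-ratio scaling turned its sign, to 0.08 with an adjusted p of 0.167. The other core protein is that of Uqcrc1, given above beside Pfkfb4 and not called in TPM. It was called higher under median-ratio scaling (0.25 with an adjusted p of 0.00669) and after length correction (0.23 with an adjusted p of 0.00668).

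In complex IV 9 of the 10 ubiquitous subunit genes rose, with a median of 0.37. Cox4i1, the largest nuclear-encoded subunit, stood at 467, 486 and 493 TPM in wild type and at 746, 678 and 736 TPM in the knockout (0.58 ± 0.05 (SE), adjusted p = 0.000469). Cox7c, a small membrane subunit, stood at 221, 242 and 258 TPM in wild type and at 340.3, 349 and 373 TPM in the knockout (0.56 ± 0.07 (SE), adjusted p = 0.00143), and 22.1% of its 50-base words are shared with other transcripts. Cox7b, another small subunit, stood at 617, 651 and 644 TPM in wild type and at 941, 880.2 and 856 TPM in the knockout (0.48 ± 0.05 (SE), adjusted p = 0.000716). In all 3 the knockout libraries were clear of wild type. Cox6b1, which faces the cytochrome c side and was the most abundant complex IV transcript, stood at 803, 919 and 914 TPM in wild type and at 1139, 1081 and 1116 TPM in the knockout, with wild-type replicate 1 low (0.34 ± 0.06 (SE), adjusted p = 0.00521). After length correction it was at 0.07 with an adjusted p of 0.131. Cox8a was the ubiquitous gene that was not called in TPM (0.01 ± 0.09 (SE), adjusted p = 0.936), and after length correction it was called lower, -0.28 with an adjusted p of 0.00796.

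Tissue-restricted isoforms of complex IV were scarcely present. Cox6b2, Cox7b2, Cox8b and Cox8c were listed at 0 in every library, Cox4i2 at 0.352 TPM or less and Cox6a2 at 0.456 TPM or less. Cox7a1, the isoform of striated muscle and brown fat, stood at 1.11, 0.241 and 0.428 TPM in wild type and at 1.86, 1.52 and 0.421 TPM in the knockout, with overlap and no call (0.48 ± 0.32 (SE), adjusted p = 0.242). Markers of striated muscle summed to 2.66 to 3.70 TPM in wild type and 0.349 to 0.616 TPM in the knockout, and those of brown fat to 0.0185 TPM or less. Acta1 made up most of the wild-type muscle sum, with means of 2.77 TPM there and 0.0864 TPM in the knockout. Of the 6 muscle markers it alone could be tested, and was called lower (-1.78). Myh1, under the minimum, went the other way, from a mean of 0.0177 to 0.135 TPM.

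Cox7a2l was the complex IV symbol that fell. Its product is a supercomplex assembly factor related to Cox7a2, not an obligate subunit. Cox7a2l (ENSMUSG00000024248, chromosome 17, 83501918 to 83517330) stood at 108, 104 and 115 TPM in wild type and at 92.2, 97.1 and 95.8 TPM in the knockout, without overlap (-0.20 ± 0.05 (SE), adjusted p = 0.0154). It was 0.04 with an adjusted p of 0.505 under median-ratio scaling and -0.31 with an adjusted p of 0.00489 after length correction. Cox7a2, the ubiquitous subunit, stood at 354, 389.9 and 374 TPM in wild type and at 466, 460.1 and 436 TPM in the knockout and rose (0.28 ± 0.05 (SE), adjusted p = 0.00445), although after length correction it was at 0.07 with an adjusted p of 0.208. The ratio of Cox7a2 to Cox7a2l was 3.27, 3.73 and 3.25 in wild type and 5.06, 4.74 and 4.56 in the knockout. Every knockout ratio exceeded every wild-type ratio, a log2 difference of 0.48 in TPM. A two-sided exact permutation test gave p = 0.1, the smallest that 3 against 3 libraries allow, and 0.3 adjusted over the 6 isoform ratios examined. A share of 13.8% of the 50-base words of Cox7a2l is found in other transcripts.

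In the ATP synthase all 5 genes of the catalytic head and central stalk rose, with a median of 0.31. Atp5b, the catalytic beta subunit and the most abundant member of the whole group, stood at 1108, 1167 and 1234 TPM in wild type and at 1537, 1465 and 1533 TPM in the knockout (0.37 ± 0.05 (SE), adjusted p = 0.00191). Atp5e, the epsilon subunit of the central stalk, stood at 204, 224 and 243 TPM in wild type and at 342, 293 and 347 TPM in the knockout (0.55 ± 0.09 (SE), adjusted p = 0.00408). The alpha subunit gene Atp5a1 (0.19) and the gamma subunit gene Atp5c1 (0.14) had the smallest called rises of the complex. Atp5a1 lost its call in 5 of the 6 fits that left out 1 library, with an adjusted p of up to 0.0786, and kept it without wild-type replicate 3. Atp5d, the delta subunit, at 0.31, lost it without knockout replicate 1 or 3, with an adjusted p of up to 0.0603. Their partners in the membrane included the largest. Atp5k, subunit e of the dimer interface, stood at 238, 267 and 276 TPM in wild type and at 430.3, 376 and 429.9 TPM in the knockout (0.66 ± 0.08 (SE), adjusted p = 0.00141). Atp5l, subunit g, rose by 0.50 and Atp5j2, subunit f, by 0.38, while Atp5mpl was at -0.04 ± 0.03 (SE), adjusted p = 0.368. Atp5mpl was called in opposite directions by the other scales, higher under median-ratio scaling (0.20 with an adjusted p of 0.00567) and lower after length correction (-0.19 with an adjusted p of 0.0226).

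The peripheral stalk, which holds the head still against the rotor, was divided. Atp5o, at the joint of stalk and head, stood at 173, 176 and 188 TPM in wild type and at 267, 249 and 267 TPM in the knockout and rose (0.54 ± 0.05 (SE), adjusted p = 0.000594). A second identifier with the same symbol (ENSMUSG00000116933) shares 89.8% of its 50-base words with Donson and Atp5o, was at -0.31 ± 0.33 (SE), adjusted p = 0.455, and has no value separate from theirs that can be relied on. Atp5f1 (ENSMUSG00000000563, chromosome 3, 105942698 to 105960099), subunit b and the main rod of the stalk, stood at 430.4, 443 and 426 TPM in wild type and at 379, 382 and 371 TPM in the knockout. It fell without overlap (-0.20 ± 0.03 (SE), adjusted p = 0.0037), but was at 0.04 with an adjusted p of 0.427 under median-ratio scaling and 0.02 with an adjusted p of 0.64 after length correction. Atp5j rose by 0.32, a call lost in 4 of the 6 fits that left out 1 library (all but those without wild-type replicate 2 or knockout replicate 3), with an adjusted p of up to 0.0759. Atp5h was at 0.01 ± 0.05 (SE), adjusted p = 0.916, and under median-ratio scaling it was called higher (0.25 with an adjusted p of 0.0214).

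The c-ring, the rotor of the ATP synthase, is encoded by 3 genes whose mature proteins are the same. Atp5g3 was the most abundant of them, at 285, 300.2 and 307 TPM in wild type and at 360.1, 333 and 353 TPM in the knockout, and rose (0.23 ± 0.05 (SE), adjusted p = 0.00865). Atp5g1 stood at 68.3, 73.6 and 78.2 TPM in wild type and at 102, 87.4 and 97.3 TPM in the knockout and rose (0.38 ± 0.08 (SE), adjusted p = 0.00832). Atp5g2 stood at 14.3, 11.9 and 18.8 TPM in wild type and at 16.0, 15.6 and 15.2 TPM in the knockout, with overlap and no call (0.07 ± 0.15 (SE), adjusted p = 0.717), and 38.3% of its 50-base words are shared with other transcripts. Levels thus ran Atp5g3, Atp5g1, Atp5g2 in every library, with no overlap between neighbours. The ratio of Atp5g1 to Atp5g3 was 0.240, 0.245 and 0.255 in wild type and 0.284, 0.263 and 0.275 in the knockout, a log2 difference of 0.15 with a two-sided exact permutation p of 0.1 (0.3 adjusted over 6 ratios). The other 4 isoform ratios had exact p-values of 0.2 to 0.7.

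Both genes outside the name rule were called higher. Ndufab1, the acyl carrier protein of complex I, was at 0.41 ± 0.06 (SE), adjusted p = 0.00218, and Usmg5, a membrane subunit of the ATP synthase, at 0.22 ± 0.05 (SE), adjusted p = 0.0137. Of the 12 entries that fit the names but were left out, 5 could be tested, and 3 were called higher and 0 lower: Ndufb1-ps (0.43), Ndufb4c (0.43) and Cox6c2 (0.47). After length correction Ndufb4c (0.06 with an adjusted p of 0.272) and Cox6c2 (0.01 with an adjusted p of 0.936) lost that call, and Uqcrh-ps1, at -0.51 ± 0.21 (SE), adjusted p = 0.0858 in TPM, was called lower (-0.94 with an adjusted p of 0.0106). Atp5k-ps2 was called on none of the 3 scales. Cox6c2 stood at 669, 771 and 625 TPM in wild type and at 1011, 948 and 887 TPM in the knockout, above its parent Cox6c at 243, 259.8 and 259 TPM in wild type and at 297, 301 and 299 TPM in the knockout. Reads of such near-identical copies can be split between them. Of the 14 tested members with over 10% of their 50-base words in other transcripts 10 rose and 1 fell, and of the other 61, 45 rose and 4 fell.

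How far the members rose depended on how libraries were put on a common scale. Under median-ratio scaling, which moved the median of all tested genes from -0.21 to -0.01, 63 members were higher and 0 lower, with a median of 0.58, against 3584 higher and 3426 lower over all tested genes. Each of the 55 members called higher in TPM was also called higher there. After length correction, 49 were higher and 4 lower, with a median of 0.25 beside -0.04 for all tested genes, and 46 of the 55 kept their call. Complex III moved most between scales, with medians of 0.67 and 0.21, and the ATP synthase, lowest in TPM, then had the highest median, 0.30, beside 0.25 for both complex I and complex IV. The order of the complexes by median thus changed from scale to scale.

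**Figure D3:**
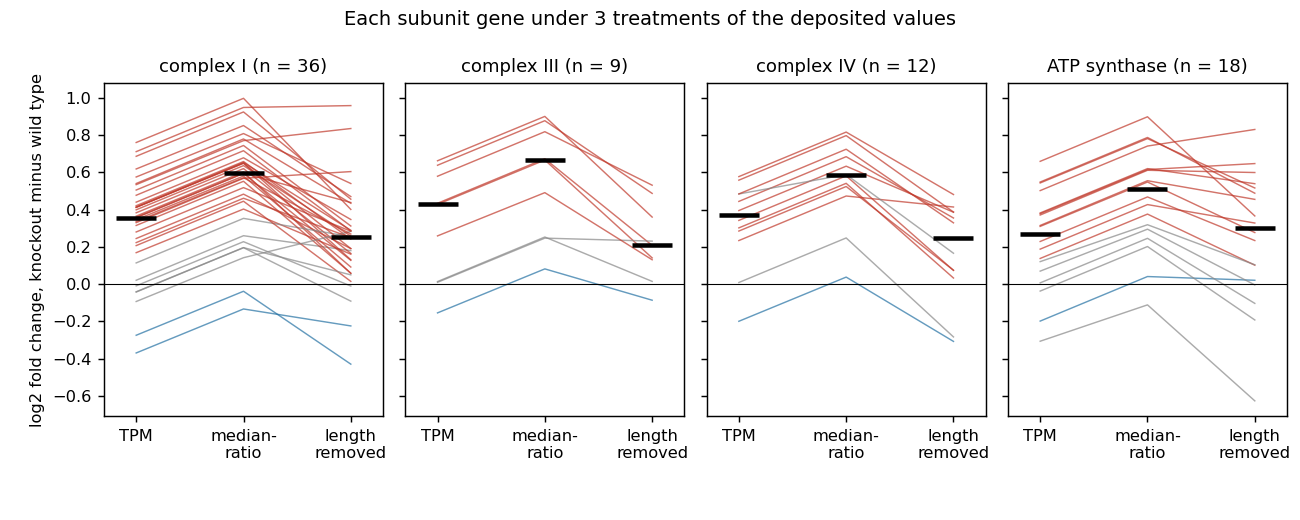
Log2 fold change of each tested member, knockout minus wild type, in deposited TPM, after median-ratio scaling and with the exon length trend removed, 1 line per member coloured by its call in TPM (red higher, blue lower, grey not called). Black bars are the medians of each complex, which were 0.27 to 0.43 in TPM, 0.51 to 0.67 after median-ratio scaling and 0.21 to 0.30 after length correction.

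The subunit genes are short in annotated exons. Exon length here is the number of bases covered by any annotated exon of a gene, which can exceed the length of a single transcript. The median exon length was 1587 nt for tested members and 3796 nt for all tested genes. In bins of exon length the median log2 fold change of all tested protein-coding genes was 0.25 up to 1000 nt, 0.13 above 1000 and up to 2000 nt and -0.26 above 2000 nt. For the members it was 0.38 (n = 19), 0.42 (n = 29) and 0.22 (n = 27). In each bin the members' median was the higher, by the widest margin above 2000 nt. The lengths of the transcripts present were not measured, so that margin need not belong to long transcripts. Across the 75 members, which share the same 6 libraries, log2 fold change and log2 exon length had a Pearson r of -0.25 and a Spearman rho of -0.29, given as a description.

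**Figure D4:**
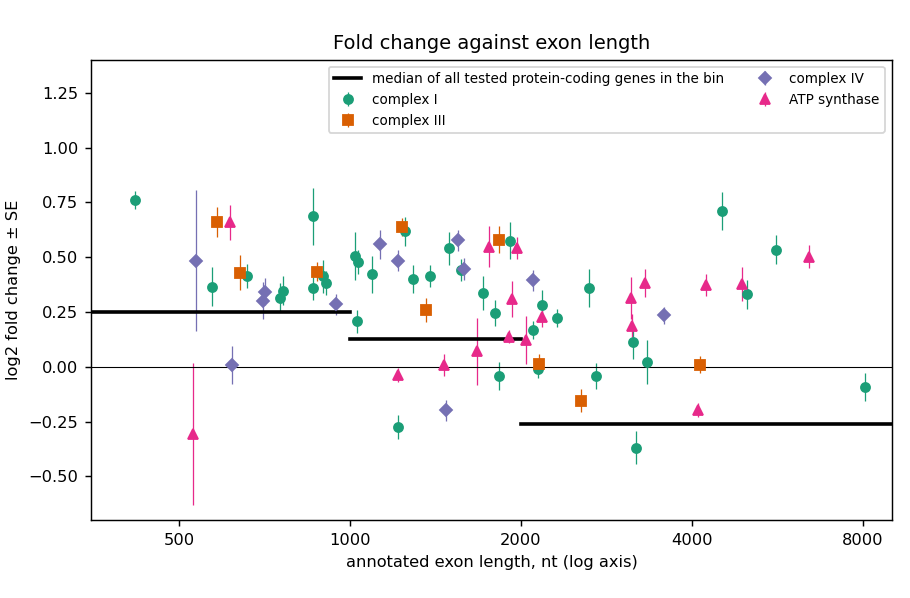
Log2 fold change (± SE, log2(TPM + 1) scale) of each tested member against its annotated exon length on a log axis, with the shape of the point marking the complex. Black lines are the medians of all tested protein-coding genes in 3 length bins, 0.25, 0.13 and -0.26, and most members lie above the line of their bin.

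Position was looked at after the falls on chromosome 17 had been seen, and is given without a test. Of 6 members on chromosome 17, 1 rose (Ndufa11, 0.42), 3 fell (Ndufv3, Ndufb10 and Cox7a2l) and Ndufa7 and Ndufv2 were not called, with a median of -0.12. Of the 69 tested members elsewhere 54 rose and 2 fell, with a median of 0.36. The other tested protein-coding genes of chromosome 17 had a median of -0.47, with 376 lower and 35 higher of 556, the lowest median of the 20 chromosomes. Neighbours were the 10 tested protein-coding genes on each side of a member's start, with members left out. Among these 20 genes the median was -0.77 around Ndufv3, with 17 called lower, and -0.64 around Ndufb10, with 15 called lower. Around Ndufa7, which was not called, it was -0.50, with 14 called lower. Around Cox7a2l, which fell, it was -0.28, with 12 called lower, beside -0.25, also with 12, around Ndufv2, and -0.14 around Ndufa11. From the lowest neighbourhood to the highest, the members' own values were -0.37 (Ndufv3), -0.27 (Ndufb10), -0.04 (Ndufa7), -0.20 (Cox7a2l), -0.01 (Ndufv2) and 0.42 (Ndufa11). For these 6, calls and neighbourhoods thus did not match gene by gene, while the values ran in nearly the same order. On other chromosomes, Atp5l rose (0.50) beside a neighbourhood of -0.59, with 14 called lower. Atp5f1 fell (-0.20) beside -0.54, also with 14. The part of position in the members' values was not tested. The medians on chromosome 17 under median-ratio scaling were 0.12 for the members and -0.26 for the other genes.

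**Figure D5:**
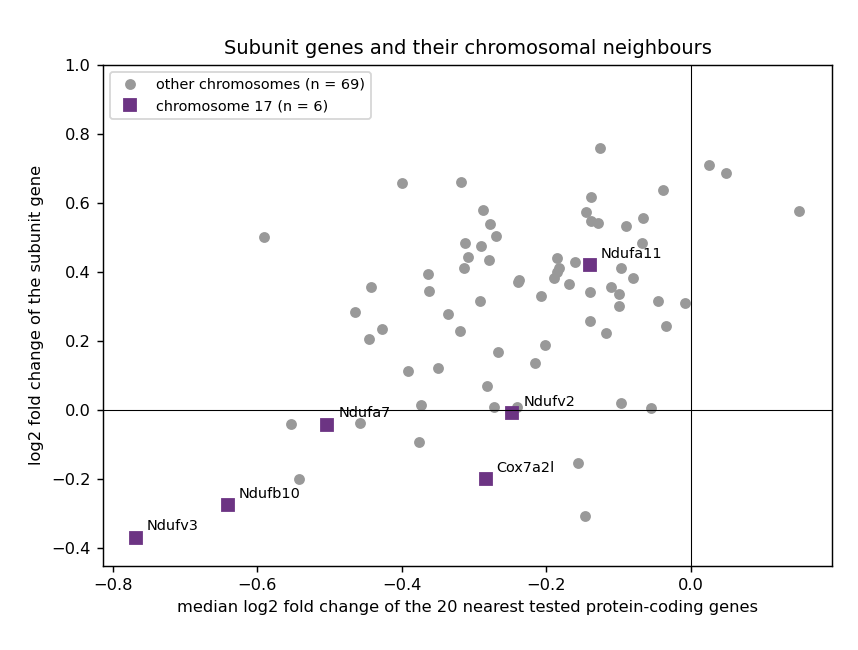
Log2 fold change of each tested member against the median log2 fold change of its neighbours, in TPM. Neighbours are up to 10 tested protein-coding genes on each side of its start, with members left out (20 for most members, 13 for Ndufa3). Purple squares are the 6 members on chromosome 17 and grey circles the 69 on other chromosomes; Ndufv3 and Ndufb10 have the 2 lowest neighbourhoods, -0.77 and -0.64.

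Complex II was mixed in TPM, and the cytochrome c gene that could be tested rose. Complex II, the succinate dehydrogenase, has no mitochondrially encoded subunit. Its iron-sulfur subunit gene Sdhb stood at 68.5, 72.1 and 73.0 TPM in wild type and at 103, 104 and 107 TPM in the knockout and rose (0.55 ± 0.04 (SE), adjusted p = 0.000339), as did Sdhc (0.28), an anchor in the membrane. The flavoprotein gene Sdha was lower in TPM (-0.26 ± 0.08 (SE), adjusted p = 0.039) and was at -0.02 with an adjusted p of 0.855 under median-ratio scaling. Sdhd was not called in TPM (0.07 with an adjusted p of 0.124) and was higher under median-ratio scaling (0.31 with an adjusted p of 0.00194). On that scale 3 of the 4 genes were higher and 0 lower, beside 3584 and 3426 of all 13499 tested genes. After length correction the counts were 2 and 0, beside 3128 and 3594. Cycs, the mobile cytochrome c, rose by 0.27. Cyct, the testis form, did not reach the minimum.

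Assembly factors were called in both directions in TPM, where 14.5% of all tested genes were higher and 42.3% lower. Of 16 tested for complex I, 5 rose and 1 fell, with a median of 0.07; Ecsit (0.33) and Ndufaf3 (0.43) rose and Tmem186 fell (-0.31). Of 6 for complex III, Lyrm7, which handles the Rieske protein, rose (0.97) and Ttc19 fell (-0.38). For complex IV the count was 5 higher and 4 lower of 20, with Cox20 (0.69) and Cox16 (0.26) up and Coa5 (-0.46) and Cox15 (-0.63), a heme A synthase, down. Atpif1, the inhibitor of ATP hydrolysis by the synthase, stood at 213, 237 and 243 TPM in wild type and at 389, 375 and 383 TPM in the knockout and rose (0.73 ± 0.06 (SE), adjusted p = 0.000372). In TPM this was a larger value than that of any tested ATP synthase subunit. After length correction Atpif1 (0.61) lay below Atp5l (0.83) and Atp5g1 (0.65). Atpaf1, which chaperones the beta subunit, rose (0.50), and Tmem70 fell (-0.34). Under median-ratio scaling 3584 of all 13499 tested genes were higher and 3426 lower. The assembly counts on that scale were 8 and 0 for complex I and 1 and 0 for complex III. They were 9 and 2 for complex IV and 2 and 0 for the ATP synthase. There Tmem186 (-0.13 with an adjusted p of 0.35), Ttc19 (-0.17 with an adjusted p of 0.128) and Tmem70 (-0.12 with an adjusted p of 0.322) lost their lower calls. After length correction 3128 of all tested genes were higher and 3594 lower. The assembly counts were then 6 and 0, 1 and 1, 7 and 6, and 2 and 1. Tmem186 (-0.14 with an adjusted p of 0.287) and Ttc19 (-0.12 with an adjusted p of 0.228) again had no call.

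Regulators of mitochondrial biogenesis were lower or not called in TPM. Of 14 tested, 0 rose and 8 fell in TPM, beside 14.5% higher and 42.3% lower over all tested genes, and with a median of -0.36 beside -0.21, so the share that fell is not far from that of all genes. Under median-ratio scaling 2 were higher and 4 lower, beside 3584 and 3426 of all 13499 tested genes. After length correction the counts were 2 and 3, beside 3128 and 3594. Pprc1, a coactivator, fell by 0.63 and Yy1, a zinc finger factor, by 0.86. The factors whose motifs were searched were lower too: Nrf1 stood at 11.6, 11.1 and 13.1 TPM in wild type and at 8.18, 8.75 and 8.98 TPM in the knockout (-0.42 ± 0.08 (SE), adjusted p = 0.00569) and Gabpa, the DNA-binding subunit of GABP, at 38.1, 26.2 and 26.9 TPM in wild type and at 11.3, 15.6 and 15.9 TPM in the knockout (-1.04 ± 0.19 (SE), adjusted p = 0.00525). Under median-ratio scaling Nrf1 had no call (-0.20 with an adjusted p of 0.0633). After length correction Nrf1 was at 0.00 with an adjusted p of 0.975 and Gabpa at -0.73 with an adjusted p of 0.0162. Ppargc1a, the best known coactivator, did not reach the minimum, with at most 0.171 TPM.

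The mitochondrially encoded partners were mostly lower in TPM. For complex I, 0 of 7 were higher and 6 lower, the lowest being mt-Nd4l (-1.65) and mt-Nd5 (-1.42). The complex III transcript mt-Cytb fell (-0.60), from 3062 ± 60.7 to 2016 ± 151 TPM (SD, n = 3). For complex IV, mt-Co1 fell (-1.02), mt-Co3 rose (0.66) and mt-Co2 was at -0.14 ± 0.12 (SE), adjusted p = 0.368. Both ATP synthase transcripts fell, mt-Atp6 by 0.79 and mt-Atp8 by 1.03. Over the 13 the median was -0.79, and -0.55 under median-ratio scaling, where 1 was higher and 9 lower. Over all 13499 tested genes the medians were -0.21 and -0.01, with 3584 higher and 3426 lower under median-ratio scaling. Mitochondrial transcripts are cut from long precursors, and how well each is captured in a poly(A) library was not tested.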

How the data were processed

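The deposited EMT6 values are TPM, computed by the authors and deposited as 1 table with 6 columns, each summing to 1000000. The submitters' processing notes name Subread 1.6.4, featureCounts, TopHat2 2.1.1 and CASAVA 1.8.2, and mm10 among the builds. The sources used here do not give the strand and multi-mapping settings, the formula of the TPM or the read depth.

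GENCODE M21 (GRCm38, equal to mm10) gave gene names, exon lengths and positions. Sharing of sequence was measured as the percent of a gene's 50-base words found in transcripts of other genes. Genes with at least 0.5 TPM in at least 3 of 6 libraries were tested on log2(TPM + 1), which understates the change of low genes, with limma 3.58.1 in R 4.3.3 (mean-variance trend, no covariate), Benjamini-Hochberg adjustment over all tested genes and calls at 0.05. The test was also tried on simulated data, and no statement here rests on that trial. Other steps used Python 3.11.15 with scipy 1.17.1. No pair of libraries held identical values.

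Members and lists were chosen with earlier results of these data known, so lists have counts and medians only. A result for 1 member, which stays in all counts and medians, is not reported here. Values in every library are given for Pfkfb4, the 3 largest called rises and falls of each complex, its most abundant member and the isoform families; in other lists up to 2 members per direction with the smallest adjusted p are named, and further ones were chosen after their values were seen. Alternatives were median-ratio scaling, removal in each library of a lowess curve (span 0.3) on log2 exon length, a pseudocount of 0.1, no filter, a filter of 1 TPM, no trend, a replicate block, leaving out each library or the 10 most abundant genes, a minimum change of 1.5-fold, and a narrower membership. Leaving out members on chromosome 17 or with over 10% shared words, and the isoform ratios under each setting, were chosen after seeing the data.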

Additional observations from a re-analysis of the deposited data

How the results depend on the processing

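Of the 55 members called higher in TPM, 40 were called higher in all 15 fits (21 in complex I, 5 in complex III, 6 in complex IV and 8 in the ATP synthase), and 0 were called lower in all of them. Under median-ratio scaling the 5 lower calls became 0, with 0 in each complex, and 3584 genes were called higher and 3426 lower over all tested. Its values turned sign for Ndufa7 (0.20), Ndufs1 (0.14), Ndufs4 (0.20), Ndufv2 (0.23), Uqcrc2 (0.082), Cox7a2l (0.038), Atp5f1 (0.041) and Atp5mpl (0.20). After length correction 3128 genes were called higher and 3594 lower, the lower members were 1 in complex I, 0 in complex III, 2 in complex IV and 1 in the ATP synthase (Atp5mpl), and the sign turned for Ndufs1 (0.28), Ndufs4 (0.050), Cox8a (-0.28), Atp5f1 (0.021), Atp5g2 (-0.004) and Atp5h (-0.10). A minimum change of 1.5-fold left 558 genes higher and 2406 lower, and 7 members higher and 0 lower: 4 and 0 in complex I, 2 and 0 in complex III, 0 and 0 in complex IV, 1 and 0 in the ATP synthase. The cause of these shifts was not tested, other than that a minimum change leaves fewer genes.

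The lower call in complex III, Uqcrc2, was 0 with no filter, without a trend, without the 10 most abundant genes and in every fit that left out a library. Leaving out a library gave 47 to 54 members higher and 3 to 4 lower, with 0 to 1 lower in complex IV; without knockout replicate 1 the lower members were 3 and Cox7a2l had no call (adjusted p = 0.0556). Higher calls lost in at least 1 of these fits were those of Atp5a1, Atp5j and Atp5d, of Cox6a1, Ndufs3 and Ndufb9 without knockout replicate 1 or 3, and of Ndufa2 and Ndufa9 without knockout replicate 1; Cox7a1 gained a higher call without knockout replicate 3 (0.79, adjusted p = 0.0498). The sign turned in some of these fits, with no call, for Ndufa10 (-0.058 to 0.102), Ndufa7 (-0.091 to 0.025), Ndufs4 (-0.075 to 0.013), Ndufv2 (-0.041 to 0.011), Cyc1 (-0.004 to 0.045), Uqcrc1 (-0.014 to 0.030), Cox8a (-0.078 to 0.067), Atp5g2 (-0.072 to 0.233) and Atp5h (-0.042 to 0.039). Leaving out chromosome 17 gave 2 members lower, with 0 in complex I and 0 in complex IV, which also had 0 without shared sequence or on the narrower membership.

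Libraries share replicate numbers between groups. In deviations from the group means, same-numbered libraries correlated at 0.065, -0.017 and 0.073, and differently numbered ones at -0.122 to 0.062. With 3 libraries per group these values cannot show whether libraries are paired by that number. A fit with it as a replicate block gave 51 members higher (Atp5c1, Atp5j, Ndufa9 and Ndufb9 lost the call) and 4 lower, with 0 lower in complex III, and 1629 and 5022 genes over all tested.

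Each of the 6 isoform ratios kept the sign of its difference in every fit. The number of reads behind a TPM is not known, so no interval for counting error can be given. With 3 libraries per group the smallest exact p is 0.1.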
